A study of Mus musculus with 9 samples.

Results

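The genes described here handle iron, zinc and related metals in macrophages: Lcn2, Hp, Mt1, Mt2, Slc11a1, Slc40a1, Tfrc and Fth1. They were chosen by name, with earlier results of these data known. Every probe set that the platform annotation gives to 1 of these 8 symbols was taken. That made 16 of the 22690 probe sets and 8 of the 12394 named genes on the array. Of these, 14 reached a log2 value of 6 on at least 1 array and were tested together with 16723 probe sets in all. The other 2 are short control probe sets for the Tfrc transcript and are described without a test. The samples were peritoneal macrophages, drawn into the abdominal cavity of mice by an injection of thioglycollate and stimulated in culture with lipopolysaccharide (LPS) at 100 ng/ml. Cells came from MyD88-/- mice (MyD88 KO), TRIF-/- mice (TRIF KO) and wild-type mice, and each genotype was measured unstimulated (0 h) and after 1 and 4 h of LPS. There were thus 9 arrays and 1 array for each of the 9 groups. The labels do not name the strain background or age, nor how many mice an array stands for, and they describe both knockouts only as null for the named gene.

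Microbes need iron, zinc and manganese, and vertebrate hosts hold these metals back during infection. Macrophages take part by moving iron between storage and export, by pumping metals out of the phagosome and by secreting proteins that capture bacterial iron carriers or free haemoglobin. LPS acts through Toll-like receptor 4, and MyD88 and TRIF are the adaptor proteins of the 2 signalling branches below that receptor. A comparison of each knockout with wild type therefore asks which metal-handling transcripts differ when 1 branch is missing, before and after LPS.

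In outline, the secreted siderophore-binding protein gene Lcn2 and the transferrin receptor gene Tfrc were lower in MyD88 KO macrophages than in wild type at every time, including before LPS. Lcn2 reached a log2 value of 6 only on the 3 wild-type arrays, so its direction among tested probe sets was fixed in advance. A metallothionein probe set, assigned to Mt1, was higher in both knockouts. Haptoglobin (Hp) about doubled by 4 h of LPS in every genotype, at a lower level in MyD88 KO cells. Slc11a1 and the ferritin heavy chain gene Fth1 stayed within 0.23 log2 units over all 9 arrays on each of their probe sets.

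The metallothionein genes have a known regulatory sequence, the metal response element, to which the zinc-sensing factor MTF1 binds. Its core was searched as TGCGCNC or TGCACNC on both strands of the RefSeq promoter windows (assembly GRCm38.p6), which run from 250 bases before to 50 bases after an annotated start. The first 280 bases of a window are shown for Mt1, on the plus strand at chr8:94178839-94179118, for Mt2, on the plus strand at chr8:94172368-94172647, and for Lcn2, on the minus strand at chr2:32387710-32387989. The first 2 are shown because Mt1 and Mt2 are neighbouring coding genes on chromosome 8 with values that differed below, and Lcn2 as a member of another kind to set beside them. Capitals mark the cores on either strand.
Mt1: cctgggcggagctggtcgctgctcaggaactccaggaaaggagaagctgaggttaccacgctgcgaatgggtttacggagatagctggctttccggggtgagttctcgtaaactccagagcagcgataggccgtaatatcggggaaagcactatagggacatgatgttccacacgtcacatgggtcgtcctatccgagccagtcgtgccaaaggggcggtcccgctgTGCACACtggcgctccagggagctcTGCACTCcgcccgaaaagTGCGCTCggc
Mt2: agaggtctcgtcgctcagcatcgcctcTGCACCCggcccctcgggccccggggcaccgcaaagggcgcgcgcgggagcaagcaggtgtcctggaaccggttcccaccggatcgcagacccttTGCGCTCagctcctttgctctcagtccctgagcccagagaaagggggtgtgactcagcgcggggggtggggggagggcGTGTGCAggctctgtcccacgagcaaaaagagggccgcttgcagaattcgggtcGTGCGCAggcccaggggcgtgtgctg
Lcn2: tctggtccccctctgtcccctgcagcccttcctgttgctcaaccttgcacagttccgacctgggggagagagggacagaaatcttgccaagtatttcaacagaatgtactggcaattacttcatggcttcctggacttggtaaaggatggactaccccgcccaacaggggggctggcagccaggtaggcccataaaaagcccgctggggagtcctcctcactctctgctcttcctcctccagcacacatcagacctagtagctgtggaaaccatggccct
The Mt1 window held 3 cores, whose first bases lie at -23, 3 and 21 relative to the start, and the Mt2 window held 4, at -223, -128, -50 and 5, the last 2 on the opposite strand. Of 32851 promoter windows of the same length, 25.7% held at least 1 core and 1.97% held 3 or more. The Lcn2 window held no core. Neither the NF-kB consensus, which 8.46% of windows held, nor the STAT site TTCNNNGAA, which 8.30% held, was found in a member's window. The same was true of the iron-responsive element loop CAGTGN in the 50 bases after the start, found in 7.08% of windows. The rest of each transcript was not searched, and Slc40a1 had no window. Whether a member's transcript holds such an element was therefore not tested. Promoter windows were matched for 6 of the 8 genes. For Tfrc, 1 of the windows held an overlapping pair of cores on opposite strands. These matches describe letters in a window that follows the annotated start, and nothing about binding.

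Each group had 1 array, so a difference between 2 arrays has no replicate check and is given only as a size, with 2-fold (1 on the log2 scale) as the mark for a large one. Tests came from 1 limma model over all 9 arrays with genotype and time as additive terms, in which the 3 times stand in as replicates of a genotype and the 3 genotypes as replicates of a time. Benjamini-Hochberg adjustment ran over the 16723 probe sets, and a probe set is called at an adjusted p under 0.05. Nothing in the labels says that arrays came from separate mice or cultures, so a p-value here reflects no more than the spread among the 9 arrays, part of which may be technical. The error is what remains after genotype and time, so a response to LPS that differs between genotypes counts in it. limma draws this error toward a value shared by all tested probe sets (4 residual and 7.51 prior degrees of freedom). Whether a genotype changes the response to LPS cannot be tested with 1 array a group. Array medians lay between 7.01 and 7.07, pairs of arrays correlated at 0.970 to 0.996 over the tested probe sets. Precision is limited by the small number of arrays.

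**Figure D1:**
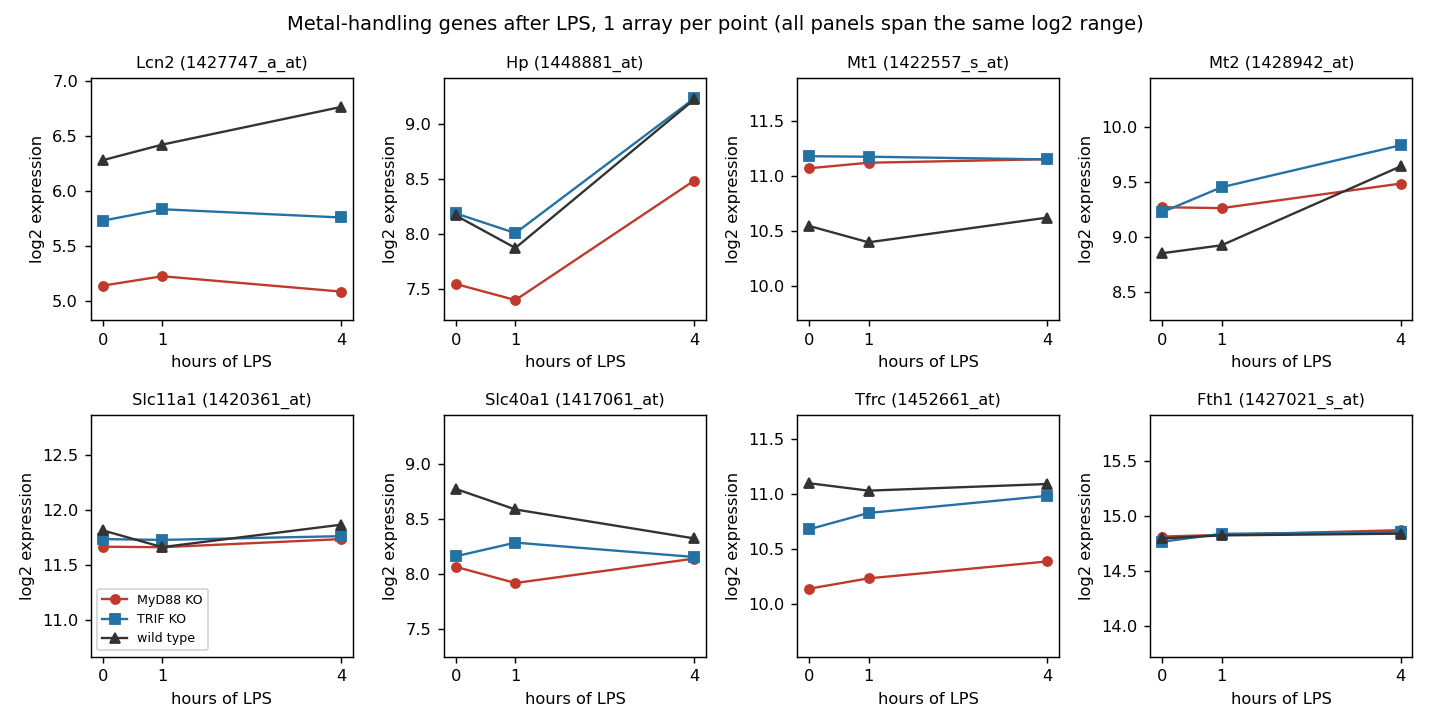
Log2 expression (vertical axis, the same range in every panel) against hours of LPS for the probe set with the highest mean of each of the 8 genes, with 1 array per point, MyD88 KO in red circles, TRIF KO in blue squares and wild type in black triangles. Lcn2 shows 3 separate lines with MyD88 KO lowest, Hp turns upward between 1 and 4 h in every genotype, the Mt1 lines of both knockouts lie above wild type, and the Slc11a1 and Fth1 lines lie on top of each other.

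Lcn2 encodes lipocalin 2, a secreted protein that binds bacterial siderophores, the small molecules with which bacteria collect iron. Its single probe set, 1427747_a_at, read 5.14, 5.23 and 5.09 at 0, 1 and 4 h in MyD88 KO cells, 5.73, 5.84 and 5.76 in TRIF KO cells, and 6.28, 6.43 and 6.77 in wild-type cells on the log2 scale. MyD88 KO read lowest and wild type highest at each time. Genotype means were 5.15 ± 0.070 in MyD88 KO, 5.78 ± 0.054 in TRIF KO and 6.49 ± 0.249 in wild type (SD, n = 3 times each). In the limma model the MyD88 KO level was 1.34 log2 units below wild type (difference -1.34 ± 0.0976 SE, adjusted p = 1.60e-05), or 0.395 of it. The TRIF KO difference from wild type was -0.72 ± 0.0976 (adjusted p = 0.00277), or 0.609 of the wild-type level. Lcn2 reached the filter value of 6 only on the 3 wild-type arrays, so among probe sets that passed the filter it had to be higher in wild type, and the fold changes rest on knockout readings near the low end of the scale.

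The lower Lcn2 readings of the knockouts were present before LPS. At 0, 1 and 4 h the MyD88 KO array lay -1.14, -1.20 and -1.68 from the wild-type array of the same time, and the TRIF KO array lay -0.55, -0.59 and -1.01. Between 0 and 4 h of LPS, Lcn2 differed by -0.05 in MyD88 KO, 0.03 in TRIF KO and 0.49 in wild type. The time effect over all genotypes was not called (0.15, limma adjusted p = 0.402). Raising every reading below 6 to 6 gives all knockout arrays the same value. The sign, the equal size and the lack of a difference between the knockouts are then fixed in advance. With that floor both knockouts differed from wild type by -0.49 (limma adjusted p = 0.0353 for MyD88 KO and 0.0858 for TRIF KO), which is no check of the result. The difference between the knockouts themselves, MyD88 KO minus TRIF KO, was -0.63 (limma adjusted p = 0.00580), and it lost its call without the TRIF KO array at 0 h (adjusted p = 0.0588) or at 1 h (adjusted p = 0.0613).

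Neutrophils store large amounts of lipocalin 2, and elicited peritoneal cells can include them. Of 13 neutrophil marker genes with a probe set, 11 were tested and none was called in either knockout against wild type. Their summed signal was 11.20 to 11.35 on the log2 scale in MyD88 KO, 11.39 to 11.54 in TRIF KO and 11.33 to 11.47 in wild type, so the MyD88 KO range was the lowest and overlapped that of wild type. Of 5 tested B cell markers, Cd79a and Ms4a1 were called lower in both knockouts than in wild type and the other 3 were not called. Cd79a differed by -0.49 in MyD88 KO (limma adjusted p = 0.00552) and -0.56 in TRIF KO (adjusted p = 0.00525), and Ms4a1 by -0.33 and -0.45. Their summed signal on the log2 scale was at least 10.85 in MyD88 KO, where it overlapped wild type, 10.74 to 10.83 in TRIF KO and 10.84 to 11.11 in wild type. The part of such cells in the Lcn2 result was not tested, and in a bulk sample fewer cells of a type and less RNA per cell cannot be told apart.

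By profile over the 9 arrays, the genes most like Lcn2 among 134 candidates with an SD of at least 0.5 were Calml4 (Pearson r = 0.87), Ctse, which encodes the protease cathepsin E (0.86), and Marco, a scavenger receptor of macrophages (0.81). These correlations describe 9 arrays that share genotypes and times.

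Hp encodes haptoglobin, the plasma protein that binds free haemoglobin and so keeps its haem iron from microbes. Its probe set read 7.54, 7.40 and 8.49 at 0, 1 and 4 h in MyD88 KO cells, 8.19, 8.01 and 9.23 in TRIF KO cells, and 8.17, 7.87 and 9.22 in wild-type cells (log2). Readings at 4 h were above those at 0 and 1 h in every genotype, and the TRIF KO and wild-type arrays were close to each other at all times. Hp rose by 4 h of LPS, by 1.01 ± 0.0682 over the 3 genotypes (limma adjusted p = 5.67e-06), a 2.02-fold difference. The 2-array differences at 4 h were 0.94 in MyD88 KO, 1.05 in TRIF KO and 1.06 in wild type. At 1 h they were -0.15, -0.18 and -0.30 in the same order, and the 1 h effect was not called (-0.21, limma adjusted p = 0.769). With time as the only term, so that the spread between genotypes counts as error, the adjusted p at 4 h was 0.0507.

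Hp was lower in MyD88 KO than in wild type at each time. MyD88 KO lay -0.62, -0.47 and -0.74 from wild type at 0, 1 and 4 h, and its limma difference over the 3 times was -0.61 ± 0.0682 (adjusted p = 0.000322). TRIF KO lay 0.02, 0.14 and 0.01 from wild type, and its limma difference was 0.05 with a 95% interval of -0.09 to 0.20 (adjusted p = 0.805). The difference between the knockouts was -0.67 (limma adjusted p = 0.000398). Without time as a term the MyD88 KO difference was not called (adjusted p = 0.608), because the 4 h readings of each genotype then enter its spread. Hepatocytes are the main source of haptoglobin in the body, and none of 3 tested hepatocyte markers was called in any comparison between genotypes or times. Their summed signal was 9.02 to 9.08 in MyD88 KO, 9.04 to 9.11 in TRIF KO and 9.04 to 9.10 in wild type on the log2 scale.

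The genes most like Hp by profile were Tlr1, a Toll-like receptor for bacterial lipopeptides (Pearson r = 0.98 over 9 arrays), Fpr2, a receptor for formylated peptides (0.97), and Mcoln2, an ion channel of endosomes (0.97).

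Mt1 and Mt2 encode metallothioneins, small cysteine-rich proteins that bind zinc and copper. The probe set 1422557_s_at of Mt1 read 11.07, 11.12 and 11.15 at 0, 1 and 4 h in MyD88 KO cells, 11.18, 11.18 and 11.15 in TRIF KO cells, and 10.55, 10.40 and 10.62 in wild-type cells (log2). All 6 knockout arrays lay above all 3 wild-type arrays, and the knockouts lay within 0.11 of each other. The share of all tested probe sets with such a separation was not counted. The MyD88 KO difference from wild type was 0.59 ± 0.0694 (limma adjusted p = 0.000468), a 1.51-fold higher level, and that of TRIF KO was 0.65 ± 0.0694 (adjusted p = 0.000422), a 1.57-fold higher level. Both kept their call in all 20 alternatives, with adjusted p-values up to 0.0260 and 0.0418. The time effect was not called (0.04 at 4 h, limma adjusted p = 0.787).

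The other Mt1 probe set, 1451612_at, did not show this. It read 6.43, 6.61 and 6.48 in MyD88 KO cells, 6.51, 6.63 and 6.61 in TRIF KO cells, and 6.42, 6.73 and 6.61 in wild-type cells, and the genotypes overlapped. Its difference from wild type was -0.08 in MyD88 KO (limma adjusted p = 0.553) and -0.00404 in TRIF KO (adjusted p = 0.989), and over the 9 arrays its profile correlated with that of the first probe set at -0.24. The s_at suffix marks probes that can match several related transcripts, so the higher reading in the knockouts is assigned to Mt1 with that uncertainty.

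Mt2 read 9.27, 9.26 and 9.49 at 0, 1 and 4 h in MyD88 KO cells, 9.23, 9.45 and 9.84 in TRIF KO cells, and 8.85, 8.93 and 9.64 in wild-type cells (log2). The 4 h reading was the highest of each genotype, and before LPS both knockouts lay above wild type. Mt2 rose by 0.54 ± 0.0998 at 4 h over the 3 genotypes (limma adjusted p = 0.00500), a 1.45-fold difference, made of 0.21 in MyD88 KO, 0.61 in TRIF KO and 0.79 in wild type. This call was lost without the TRIF KO arrays (adjusted p = 0.0526), without the wild-type arrays (0.0509) and with time as the only term (0.0863). Neither knockout was called against wild type over the 3 times, with 0.20 in MyD88 KO (limma adjusted p = 0.297) and 0.36 in TRIF KO (adjusted p = 0.129). The TRIF KO difference was called without the wild-type array at 4 h (0.50, adjusted p = 0.0335) or the MyD88 KO array at 4 h (0.36, adjusted p = 0.0433). At 0, 1 and 4 h the MyD88 KO array lay 0.42, 0.34 and -0.16 from wild type and the TRIF KO array 0.37, 0.53 and 0.19, so that the gap seen at rest was smaller at 4 h in both, which 1 array a group cannot test. Of 6 tested fibroblast markers, 3 were called higher in both knockouts, and Col1a1, Postn and Pdgfra were not called. Their summed signal on the log2 scale was 9.86 to 9.98 in MyD88 KO, 9.78 to 9.98 in TRIF KO and 9.41 to 9.48 in wild type. Col3a1, a fibrillar collagen gene, differed from wild type by 1.45 in MyD88 KO (limma adjusted p = 1.67e-05) and 1.02 in TRIF KO (adjusted p = 0.000345), Dcn by 0.57 and 0.69, and Col1a2 by 0.60 and 0.44. Their part in the metallothionein readings was not tested.

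Slc11a1 encodes NRAMP1, the transporter that moves iron and manganese out of the phagosome and away from engulfed microbes. It read 11.66, 11.66 and 11.73 at 0, 1 and 4 h in MyD88 KO cells, 11.73, 11.72 and 11.76 in TRIF KO cells, and 11.81, 11.66 and 11.86 in wild-type cells (log2). The whole range over 9 arrays was 0.21, and the genotypes overlapped. The MyD88 KO difference from wild type was -0.09 with a 95% interval of -0.24 to 0.05 (limma adjusted p = 0.478), that of TRIF KO -0.04 with an interval of -0.18 to 0.10, and the 4 h effect 0.05 with an interval of -0.09 to 0.19. Differences of 2-fold thus lie outside all 3 intervals.

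Slc40a1 encodes ferroportin, the only known cellular iron exporter of mammals. Its probe set 1417061_at read 8.06, 7.92 and 8.14 at 0, 1 and 4 h in MyD88 KO cells, 8.16, 8.28 and 8.15 in TRIF KO cells, and 8.77, 8.59 and 8.32 in wild-type cells (log2). The probe set 1448566_at read 7.77, 7.78 and 8.10 in MyD88 KO cells, 7.99, 7.98 and 8.14 in TRIF KO cells, and 8.60, 8.44 and 8.17 in wild-type cells. On both, every knockout array lay below every wild-type array, and the profiles of the 2 probe sets correlated at 0.93 over the 9 arrays. How many of all tested probe sets separate in this way was not counted.

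The MyD88 KO difference of Slc40a1 from wild type was -0.52 ± 0.101 (limma adjusted p = 0.0108) on the first probe set and -0.52 ± 0.116 (adjusted p = 0.0220) on the second. The TRIF KO differences were -0.36 and -0.37 (adjusted p = 0.139 and 0.206). The knockouts differed from each other by -0.16 and -0.15, with 95% intervals of -0.38 to 0.06 and -0.41 to 0.10. The MyD88 KO call on 1417061_at was lost without the MyD88 KO array at 1 h (adjusted p = 0.0593) or the wild-type array at 1 h (0.0617). On 1448566_at it was lost without the MyD88 KO array at 0 h (0.0688) or 1 h (0.0882), or the wild-type array at 0 h (0.0620) or 1 h (0.115). Conversely, without the wild-type array at 4 h, TRIF KO was called lower on both probe sets (-0.49, adjusted p = 0.0384, and -0.56, adjusted p = 0.00758).

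The gap in Slc40a1 narrowed between 0 and 4 h. On 1417061_at MyD88 KO lay -0.71, -0.67 and -0.18 from wild type at 0, 1 and 4 h, and TRIF KO lay -0.61, -0.30 and -0.17. The 4 h minus 0 h differences were 0.07 in MyD88 KO, -0.01 in TRIF KO and -0.45 in wild type on this probe set, and 0.33, 0.14 and -0.43 on 1448566_at. The signs thus differ between wild type and MyD88 KO on both probe sets, a difference that was not tested. The time effect over the 3 genotypes was not called on either (-0.13, limma adjusted p = 0.523, and 0.02, adjusted p = 0.960).

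**Figure D2:**
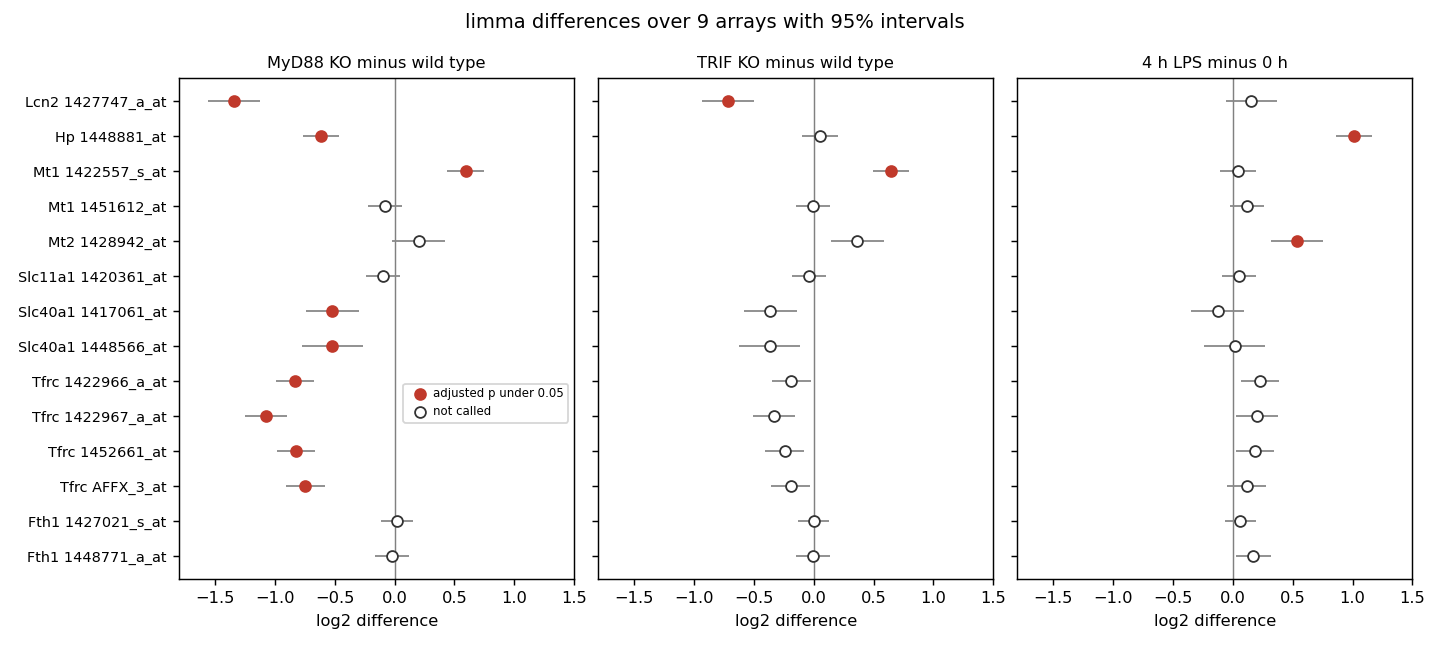
Limma log2 differences (horizontal axis) with 95% intervals for the 14 tested probe sets, as MyD88 KO minus wild type, TRIF KO minus wild type, and 4 h minus 0 h of LPS, with filled points at an adjusted p under 0.05. In the first panel Lcn2, Hp, Slc40a1 and Tfrc lie left of 0 and 1 Mt1 probe set lies right of it, in the second only Lcn2 and the same Mt1 probe set are filled, and in the third Hp and Mt2 are filled.

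Tfrc encodes transferrin receptor 1, through which cells take up transferrin-bound iron. It was measured by 6 probe sets, of which 3 are control sets named for the 3' part, the 5' part and the middle of the transcript. The probe set 1452661_at read 10.14, 10.23 and 10.38 at 0, 1 and 4 h in MyD88 KO cells, 10.68, 10.83 and 10.98 in TRIF KO cells, and 11.10, 11.03 and 11.09 in wild-type cells (log2). The probe set 1422967_a_at read 6.77, 6.59 and 6.73 in MyD88 KO cells, 7.32, 7.39 and 7.60 in TRIF KO cells, and 7.61, 7.73 and 7.97 in wild-type cells. On all 6 probe sets every MyD88 KO array lay below every TRIF KO and every wild-type array. The share of all tested probe sets that separate in this way was not counted. Over the 9 arrays the 6 profiles correlated with each other at 0.91 to 0.99, so they are repeated readings of 1 gene rather than independent results.

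MyD88 KO was lower than wild type on all 4 tested Tfrc probe sets, with differences of -0.83 ± 0.0739 on 1422966_a_at (limma adjusted p = 5.18e-05), -1.07 ± 0.0807 on 1422967_a_at (1.87e-05), -0.82 ± 0.0726 on 1452661_at (5.18e-05) and -0.75 ± 0.0744 on the 3' control set (0.000134). These correspond to 0.476 to 0.596 of the wild-type level. All 4 kept their call in every alternative that was run, with adjusted p-values up to 0.0136. The control sets for the 5' part and the middle, whose readings were below 6 on every array, read 4.88 to 5.15 and 5.18 to 5.40 in MyD88 KO, 5.54 to 5.65 and 5.63 to 5.77 in TRIF KO, and 5.70 to 5.89 and 5.83 to 5.87 in wild type. With no filter they too were called lower in MyD88 KO, at -0.76 and -0.55 from wild type.

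The TRIF KO means of Tfrc lay between the others, with differences from wild type of -0.19 to -0.33 and limma adjusted p-values of 0.0810 to 0.322. MyD88 KO was lower than TRIF KO on the same 4 probe sets, with differences of -0.64, -0.74, -0.58 and -0.55 (limma adjusted p = 0.000773, 0.000523, 0.00130 and 0.00215), and all 4 calls were lost when all 1 h arrays were left out (adjusted p = 0.0621 to 0.116). The time effect at 4 h was not called on any, and ranged up to 0.23 (1422966_a_at, adjusted p = 0.0775). Without the MyD88 KO array at 0 h, the 4 h effect was called on 1422966_a_at (0.31, adjusted p = 0.0147) and 1422967_a_at (0.31, adjusted p = 0.0173), and without the wild-type array at 0 h on 1452661_at (0.26, adjusted p = 0.0490). The TRIF KO difference on 1422967_a_at was called without the MyD88 KO array at 0 h (-0.33, adjusted p = 0.0175) or the wild-type array at 0 h (-0.40, adjusted p = 0.0375).

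**Figure D3:**
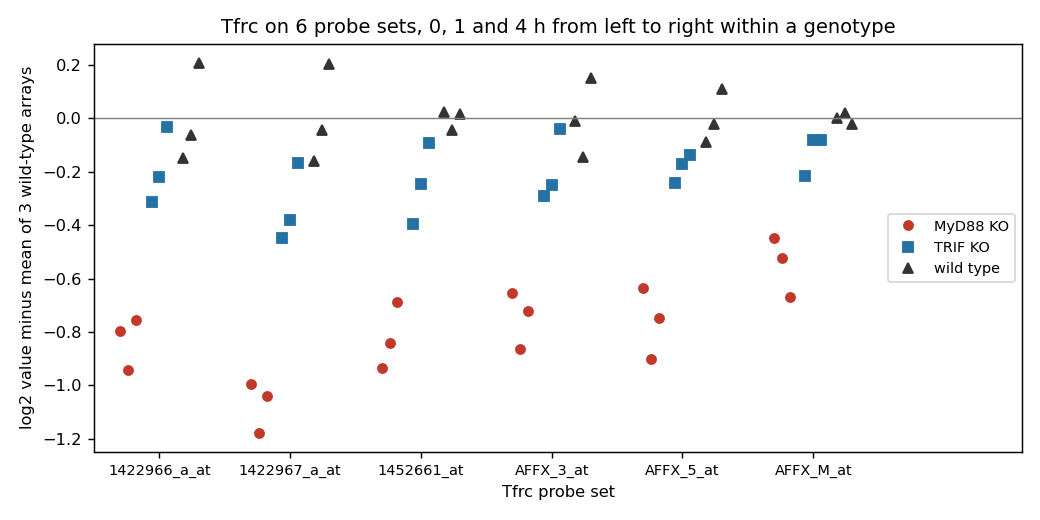
Tfrc on its 6 probe sets (horizontal axis), as log2 value minus the mean of the 3 wild-type arrays (vertical axis), with 0, 1 and 4 h from left to right within MyD88 KO (red circles), TRIF KO (blue squares) and wild type (black triangles). The MyD88 KO points lie below all others on each of the 6 probe sets.

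Fth1 encodes the ferritin heavy chain, which oxidises and stores iron. The probe set 1427021_s_at read 14.81, 14.83 and 14.87 at 0, 1 and 4 h in MyD88 KO cells, 14.76, 14.84 and 14.85 in TRIF KO cells, and 14.79, 14.82 and 14.84 in wild-type cells (log2). The probe set 1448771_a_at read 13.35, 13.45 and 13.58 in MyD88 KO cells, 13.35, 13.55 and 13.53 in TRIF KO cells, and 13.43, 13.47 and 13.54 in wild-type cells. The genotypes overlapped on both, and the genotype differences in the model were between -0.02 and 0.02 after rounding. The 4 h effect on 1448771_a_at was 0.17 with a 95% interval of 0.03 to 0.32 (limma adjusted p = 0.128), and it was called when the prior variance followed intensity (adjusted p = 0.0270). The first probe set holds the highest value in the deposited table, 14.87, so a difference could be compressed there. That was not tested.

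Counted over the 14 tested probe sets, with several from the same gene, 8 were called lower and 1 higher in MyD88 KO against wild type. Over all tested probe sets 2.69% were called lower and 3.89% higher, and the median difference was -0.52 over the members and 0.00 over all. The members, and the gene lists below, were chosen with earlier results of these data known. An excess over these shares is therefore no independent result. The 8 lower probe sets come from 4 genes, Lcn2 (which passed the filter through wild type alone), Hp, Slc40a1 and Tfrc. In TRIF KO against wild type 1 was lower (Lcn2) and 1 higher (Mt1), beside 0.419% and 1.07% of all probe sets. In MyD88 KO against TRIF KO 6 were lower and 0 higher, beside 1.34% and 0.73%.

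For time, no member was called at 1 h in either direction by limma, where 0.221% of all probe sets were called higher and 0% lower. An unadjusted p under 0.05 was reached there by 2 of the 14 member probe sets and by 884 of all 16723. At 4 h 2 were called higher (Hp and Mt2) and 0 lower, beside 4.7% and 5.83% of all, with medians of 0.13 over the members and -0.01 over all. At 4 h against 1 h the same 2 were higher and 0 lower, beside 3.82% and 5.13%, by 1.22 for Hp (limma adjusted p = 3.81e-06) and 0.44 for Mt2 (adjusted p = 0.0168). The Mt2 call at 4 h against 1 h was lost without the 1 h array (adjusted p = 0.0554) or the 4 h array (0.0679) of TRIF KO, and without the 1 h array (0.142) or the 4 h array (0.109) of wild type.

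By size alone, Hp was the member that reached 2-fold with time. At 4 h against 0 h the count was 0 in MyD88 KO, 1 in TRIF KO and 1 in wild type, where 0.46%, 0.389% and 1.23% of all probe sets were at least 2-fold higher. At 4 h against 1 h it was 1 in each, beside 0.323%, 0.197% and 0.867%. Lcn2 was at least 2-fold lower in MyD88 KO than in wild type at all 3 times and the Tfrc probe set 1422967_a_at at 1 and 4 h (-1.14 and -1.24), beside 0.161%, 0.233% and 0.532% of all probe sets at 0, 1 and 4 h. In TRIF KO only Lcn2 at 4 h passed, at -1.01, beside 0.287%. Lcn2 entered these counts only through its wild-type readings.

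Other genes of iron handling were taken from a list of 48, of which 41 had a probe set and 35 were tested by the probe set with the highest mean. At 4 h of LPS 7 rose and 4 fell, where 4.37% and 6.44% of 10032 genes were called higher and lower, and the median of the list was 0.00. Across the alternatives between 5 and 12 of the 35 were called. None was called at 1 h, beside 0.259% of genes higher and 0% lower. Slc25a37, which encodes the mitochondrial iron importer mitoferrin-1, rose by 1.01 (limma adjusted p = 4.02e-05), with 1.08 in MyD88 KO, 0.78 in TRIF KO and 1.15 in wild type. Alas1, the first enzyme of haem synthesis, rose by 0.86 (adjusted p = 1.00e-05), with 0.89, 0.82 and 0.88 in the same order. Slc11a2 encodes the iron importer DMT1 and rose by 0.67 (adjusted p = 7.67e-05, and 0.179 with time as the only term), with 0.60, 0.74 and 0.65.

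Hmox1, haem oxygenase 1, which releases iron from haem, rose by 0.39 (limma adjusted p = 0.00178), with 0.43 in MyD88 KO, 0.38 in TRIF KO and 0.37 in wild type. Slc48a1, a haem transporter of endosomes and lysosomes, rose by 0.47 (adjusted p = 0.00135), with 0.48, 0.48 and 0.46. Hfe, a partner of the transferrin receptor, fell by 0.45 (adjusted p = 0.00286), and Steap3, an endosomal iron reductase, fell by 0.42 (adjusted p = 0.00566), each lower at 4 h in all 3 genotypes. The remaining called genes of the list were Nfe2l2 (0.36, adjusted p = 0.00434) and Ftmt (0.25, adjusted p = 0.0382), which rose, and Hmox2 (-0.31, adjusted p = 0.0187) and Slc46a1 (-0.27, adjusted p = 0.0250), which fell. Across the alternatives their adjusted p-values reached 0.125, 0.331, 0.178 and 0.330 in that order. Ftmt, Hmox2 and Slc46a1 lost their call without any of several single arrays. Those of Hfe and Steap3 reached 0.0851 and 0.0628. The iron regulatory protein genes Aco1 and Ireb2 were not called (-0.20, adjusted p = 0.128, and 0.00, adjusted p = 0.999), nor were the hepcidin gene Hamp (0.02, adjusted p = 0.912) and the lactoferrin gene Ltf (-0.07, adjusted p = 0.624).

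Between genotypes, 3 of the 35 iron genes were higher and 4 lower in MyD88 KO than in wild type, beside 4.11% and 2.49% of genes. Across the alternatives between 1 and 8 were called, with 3 without the wild-type array at 4 h, 4 without the MyD88 KO array at 1 or 4 h or with any 1 of the TRIF KO arrays left out, and 1 with genotype as the only term. In TRIF KO 0 were higher and 1 lower, beside 1.04% and 0.379%. That count ranged over the alternatives between 0 and 2, and was 0 with any 1 of the TRIF KO arrays, the MyD88 KO array at 1 or 4 h, or the wild-type array at 1 or 4 h left out. In MyD88 KO against TRIF KO 1 was higher and 2 lower, beside 0.827% and 1.24%, and between 0 and 5 were called across the alternatives, with 1 without the TRIF KO array at 1 h and 5 without the wild-type array at 0 h. Slc11a2 had the lowest difference of them in MyD88 KO. It read 9.0, 9.04 and 9.61 at 0, 1 and 4 h in MyD88 KO cells, 9.56, 9.59 and 10.30 in TRIF KO cells, and 9.73, 9.69 and 10.38 in wild-type cells, so that MyD88 KO was lowest at each time. Its difference from wild type was -0.71 (limma adjusted p = 5.54e-05, and 0.312 with genotype as the only term). Its difference from TRIF KO was -0.60 (adjusted p = 0.000519, and 0.807 with genotype as the only term).

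**Figure D4:**
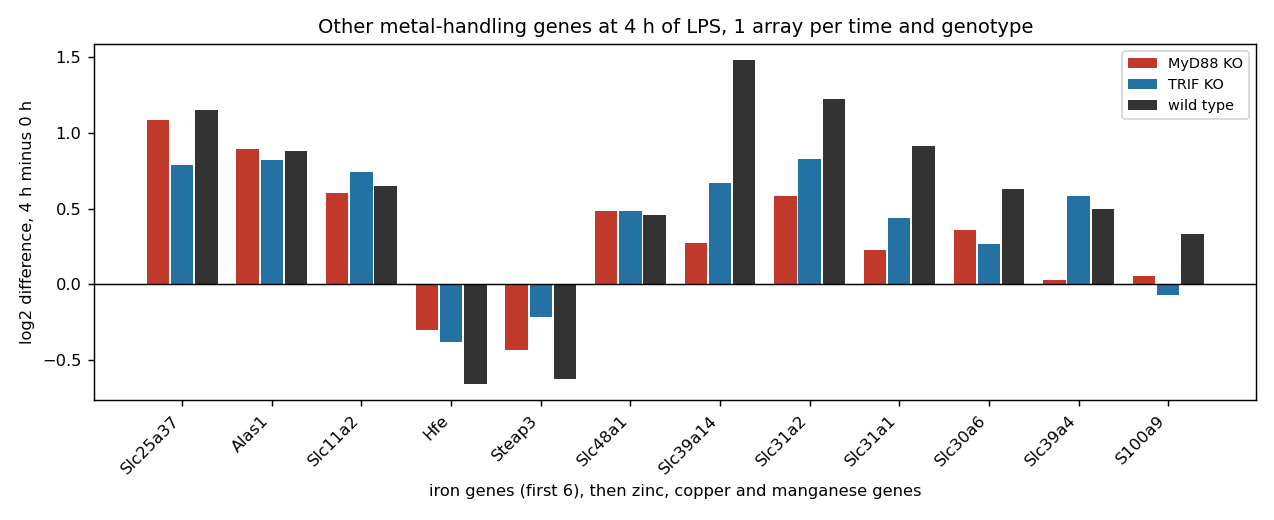
Log2 difference between the 4 h and the 0 h array (vertical axis) in MyD88 KO (red), TRIF KO (blue) and wild type (black), with 1 array per time and genotype, for 6 other iron genes and 6 zinc, copper and manganese genes. The bars of Slc25a37, Alas1, Slc11a2 and Slc48a1 point upward in all 3 genotypes, with Alas1 and Slc48a1 of nearly equal height. The wild-type bars of Slc39a14, Slc31a2, Slc31a1 and Slc30a6 are the tallest of their 3, while TRIF KO has the tallest for Slc39a4.

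Genes of zinc, copper and manganese handling were taken from a list of 38, of which 32 had a probe set and 28 were tested. At 4 h 5 rose and 1 fell, beside 4.37% and 6.44% of genes, and across the alternatives between 1 and 7 were called. None was called at 1 h, beside 0.259% and 0%. Slc39a14 (ZIP14, an importer of zinc, iron and manganese) rose by 0.81 (limma adjusted p = 0.0114), with 0.27 in MyD88 KO, 0.67 in TRIF KO and 1.48 in wild type. Slc31a2, a copper transporter, rose by 0.88 (adjusted p = 0.000738), with 0.58, 0.83 and 1.22 in the same order, and the copper importer Slc31a1 by 0.53 (adjusted p = 0.0174), with 0.23, 0.44 and 0.91. In each of these genes MyD88 KO had the smallest and wild type the largest 2-array difference, an order that 1 array a group cannot test. They were named for their largest 4 h difference in any genotype, here that of wild type. Slc30a6 rose by 0.42 (adjusted p = 0.0117), with 0.36, 0.27 and 0.63 in the same order of genotypes. Slc39a4 rose by 0.37 (adjusted p = 0.0309), with 0.03, 0.58 and 0.49. In these TRIF KO had the smallest difference for Slc30a6 and the largest for Slc39a4.

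Several of these zinc and copper calls rested on few arrays. Without the wild-type array at 0 h the adjusted p was 0.0641 for Slc39a14, 0.0842 for Slc31a1, 0.0520 for Slc30a6 and 0.113 for Slc39a4, and 1 of the 28 genes was then called. Without the wild-type array at 4 h, or without the TRIF KO array at 0 h, 2 were called, and the Slc31a1 difference was 0.31 without that wild-type array (adjusted p = 0.0507). Between genotypes 1 was higher and 2 lower in MyD88 KO than in wild type, beside 4.11% and 2.49% of genes, and between 0 and 4 were called across the alternatives. None was called in TRIF KO, beside 1.04% and 0.379%. The higher one was Mt3 (0.38, limma adjusted p = 0.00483), another metallothionein gene, which lies next to Mt2 on chromosome 8. The lower ones were Slc31a2 (-0.52, adjusted p = 0.0229) and Slc39a4 (-0.38, adjusted p = 0.0376), and both lost their call without the wild-type array at 4 h (adjusted p = 0.0878 and 0.187). Of the partners of zinc withholding, the MTF1 gene Mtf1 (0.06 at 4 h, adjusted p = 0.674), the zinc exporter Slc30a1 (0.12, adjusted p = 0.433) and the calprotectin subunit S100a8 (0.08, adjusted p = 0.714) were not called, and the other subunit, S100a9, read 5.25 to 5.64 and was not tested.

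The arrays carried the defining transcripts of macrophages. Lyz2 read 14.42 to 14.53 and Csf1r 13.20 to 13.45 over the 9 arrays, and 9 of 9 macrophage markers with a probe set were tested. Against wild type, 2 of them were called higher in MyD88 KO, Mrc1 (0.70) and Fcgr1 (0.31), and 2 lower, Cd14 (-0.47, limma adjusted p = 0.0260) and Adgre1 (-0.28, adjusted p = 0.0354). In TRIF KO 1 was called higher, Mrc1 (0.50), and none lower. None of 5 tested erythroid markers was called between genotypes or times. The targeted gene Myd88 read 9.19 to 9.34 in MyD88 KO, 9.54 to 9.96 in TRIF KO and at least 9.57 in wild type, and since nothing states whether its probes lie inside the deletion, it checks nothing about the labels.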

How the data were processed

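Biotin-labelled RNA of 9 macrophage samples (3 genotypes by 3 times, 1 array per combination) was measured on Affymetrix arrays. The authors deposited log2 values per probe set and array. Per the submitters' processing notes, RMA produced them. Its version and annotation are not stated in the labels. RMA subtracts background, equalises array distributions and summarises the probes of a set, so a change shared by most transcripts would be removed. Values were used as deposited. Arrays were grouped by their sample titles and characteristics, and no batch is labelled.

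Symbols came from the platform annotation, updated through RefSeq identifiers: 20393 probe sets had 1 symbol, 691 several and 1606 were not listed. Probe sets that reached log2 = 6 on at least 1 array were tested with limma 3.58.1 (lmFit and eBayes, R 4.3.3) in an additive model of genotype and time with 4 residual degrees of freedom, two-sided, with Benjamini-Hochberg adjustment. 51 control probe sets without a symbol were left out. The model was tested on simulated data. Differences of 2 arrays were read by size only. Intervals are 95% intervals of the model. Summed marker signals are log2 of sums of linear values.

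The members and gene lists were chosen with earlier results of these data known. Named genes are all member probe sets, the 6 genes of each other list with the largest 4 h difference in any genotype plus textbook partners, the 3 genes most correlated with a member that spans at least 1 log2 unit, and the leading cell type markers. Other genes named were chosen after their values were seen. Alternatives were no filter, a mean of at least 7, a floor at 6, 1 probe set per gene, an intensity trend, centring on 8 reference transcripts, each array, genotype or time left out, and a model with 1 term.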

Additional observations from a re-analysis of the deposited data

Results flagged for a closer look

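The knockouts differed from each other in limma's test of MyD88 KO against TRIF KO, which is also the test of whether the 2 knockout effects against the shared wild-type arrays differ, on 6 member probe sets. The differences, MyD88 KO minus TRIF KO on the log2 scale, were -0.63 for Lcn2, -0.67 for Hp, and -0.64, -0.74, -0.58 and -0.55 for the Tfrc probe sets 1422966_a_at, 1422967_a_at, 1452661_at and the 3' control set. The Lcn2 value is limited by signal: all 6 knockout readings lay below 6, and Lcn2 passed the filter only through wild type. Raising values below 6 to 6 makes these 6 readings equal, so that setting cannot compare the knockouts. On each of the 6, all 3 MyD88 KO arrays were lower than the TRIF KO array of the same time. The 6 were picked by this same test, so that order largely restates the call. The share of all tested probe sets with such an order was not counted. The Slc40a1 probe set 1448566_at moved in opposite directions between 0 and 4 h, by 0.33 in MyD88 KO and -0.43 in wild type. This difference was not tested, since each value comes from 2 arrays.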

How the results depend on the processing

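No direction reversed among the results recomputed under the alternatives, which for limma were called probe sets only. The filters, 1 probe set per gene, the intensity trend and the models with 1 term leave each estimate unchanged. Those alternatives could therefore not reverse a direction. Of the member counts, those by 2-fold size included, 129 values stayed within 1.5 times the reported count and 27 did not. Counts of 0 that stayed at 0 are among the 129. The number of members tested was 14 in most alternatives, 16 with no filter, 12 with a mean of at least 7 and 8 with 1 probe set per gene. At 4 h against 0 h (2 called as reported) 4 were called without the MyD88 KO arrays, 1 without the TRIF KO arrays, 1 without the wild-type arrays and 0 with time alone, where Hp had an adjusted p of 0.0507 by limma. At 4 h against 1 h (2) 1 was called with the floor at 6, without the TRIF KO arrays, without the wild-type arrays and with time alone. For MyD88 KO against wild type (9) 5 of 8 genes were called with 1 probe set per gene. These are the genes of the 9 probe sets, Lcn2, Hp, Mt1, Slc40a1 and Tfrc, so no gene lost its call there. For TRIF KO against wild type (2) 1 was called with a mean of at least 7, with the floor and without the 1 h arrays, and 5 without the MyD88 KO arrays. Lcn2, with a mean of 5.81, was not tested where a mean of at least 7 was required. For MyD88 KO against TRIF KO (6) 3 of 8 genes were called with 1 probe set per gene. The 6 probe sets come from these genes, Lcn2, Hp and Tfrc. In the same comparison 1 probe set was called without the 1 h arrays and 3 with genotype alone. With the floor the 2-fold counts of MyD88 KO against wild type were 0, 1 and 1 at 0, 1 and 4 h, and that of TRIF KO at 4 h was 0, as it was after centring.

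Leaving out 1 array at a time gave 0 calls at 1 h, 2 to 4 at 4 h, 1 to 3 at 4 h against 1 h, 7 to 9 for MyD88 KO, 2 to 5 for TRIF KO and 5 to 6 between the knockouts. The highest counts came without the MyD88 KO array at 0 h for both 4 h comparisons, and without the wild-type array at 4 h for TRIF KO.

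Over all 16723 probe sets, 37 were called at 1 h (884 at an unadjusted p under 0.05), 7 with the floor. At 4 h 786 were higher and 975 lower, and after centring 928 and 652. For MyD88 KO against wild type 650 were higher and 450 lower, after centring 452 and 518, and with the floor 445 and 281. At 4 h against 1 h 639 and 858 became 888 and 565 with centring. For TRIF KO against wild type 179 and 70 became 95 and 34 with the floor. For MyD88 KO against TRIF KO 122 and 224 became 88 and 368 with centring. The causes were not tested. No paired analysis was possible because each group has 1 array and the labels number no replicates. Signal near the low end of the scale limits Lcn2.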
